A study of Mus musculus with 6 samples.

Results

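Of 10 listed genes for the coat, the making and the breakdown of lipid droplets, 9 had a row in the deposited expression table of cultured mouse fetal liver macrophages. They were matched by gene symbol out of 16111 genes with a row, from a list chosen with earlier results of these data known. The 9 genes were Plin2, Plin3, Cidec, Dgat1, Dgat2, Pnpla2, Lipe, Lpl and Angptl4. Plin4, the remaining listed perilipin, was absent. The cells came from fetuses of the C57BL/6 RCC strain at stage E13.5, with 3 wild-type and 3 Ahrr-deficient (AhRR-/-) mice, 1 library each. Cells of both genotypes spent 5 weeks in culture with GM-CSF (2%), a cytokine that sustains macrophages, and those that had not attached were taken. How the Ahrr allele was made, and in which cells it acts, is not given in the labels. The comparison asks what differs in cells without Ahrr, which encodes the repressor of the aryl hydrocarbon receptor, a transcription factor that responds to ligands.

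Macrophages store surplus fatty acid as triglyceride in lipid droplets. Lipoprotein lipase, secreted by the cell, frees fatty acids from lipoproteins outside it, and Angptl4 encodes a secreted inhibitor of that enzyme. Inside the cell the diacylglycerol acyltransferases Dgat1 and Dgat2 make the last step of triglyceride synthesis, perilipins coat the droplet, and the lipases encoded by Pnpla2 and Lipe release the fatty acids again. Genes of this system, Plin2 and Angptl4 among them, are textbook targets of the fatty acid receptors of the PPAR family.

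The libraries held 3556106 to 41668336 counts, an 11.72-fold range, with the lowest total in Ahrr-deficient replicate 1. Wild-type replicate 2 stood apart from wild-type replicates 1 and 3, with a chi-square per degree of freedom over genes of 175 and 70.0, against 5.79 to 17.2 in the other 4 replicate pairs. Without it the log2 fold changes of Plin2, Cidec, Dgat1, Pnpla2 and Angptl4 were -1.27, -1.43, -0.98, -0.79 and -2.47, all with an adjusted p under 0.05, and Lpl, at 0.52, missed it (0.0766). Ahrr itself, the targeted gene, lay between 4.29 and 5.32 counts per 1000000 (CPM) in wild-type and between 1.21 and 2.57 CPM in Ahrr-deficient libraries, so reads remained in the Ahrr-deficient group. All 7 listed macrophage markers were present. Their summed level ran from 20820 to 26294 CPM in wild-type and from 14837 to 22181 CPM in Ahrr-deficient libraries. Lyz2 alone gave 17419 to 22740 and 12440 to 19165 CPM of these sums. All 7 had a negative log2 fold change, from -0.65 for Csf1r to -0.11 for Itgam. Only Csf1r was lower past the threshold, an adjusted p under 0.05 over all genes tested. Cd68 (-0.37, adjusted p 0.0559 by edgeR) did not pass, though its groups did not overlap. Of 7 alveolar macrophage marker names 6 had a row. Past the threshold 2 of these were higher, Car4 (log2 fold change 3.10) and Itgax (1.70). Siglecf (0.39), Chil3 (-0.13), Marco (-0.51) and Fabp4 (-0.53) did not pass, and Marco did not overlap between the groups. The sums were 36040 to 38891 against 35072 to 37504 CPM. Chil3 alone gave 34284 to 36881 CPM of them in wild-type and 32559 to 35249 CPM in Ahrr-deficient libraries. The adipocyte list had 2 of 7 genes with a row, Plin1 and Retn, summing to 7.62 to 12.7 CPM in wild-type and 1.08 to 5.62 CPM in Ahrr-deficient libraries. Adipoq, Lep, Cfd, Adig and Slc2a4 had no row. The lists for hepatocytes (1 of 6 genes with a row), erythroid cells (1 of 6), granulocytes (2 of 7) and fibroblasts with endothelium (2 of 4) each summed to at most 2.54 CPM in any library. The dendritic cell list (2 of 4) reached 6.30 CPM, and no gene of the mast cell and basophil list (0 of 5) or the T and NK cell list (0 of 4) had a row. In bulk RNA, fewer cells of a type and less RNA per cell cannot be told apart.

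Promoter sequences are shown for Plin2, the most abundant perilipin and one whose level differed between the genotypes, and for its paralogue Plin3, whose level did not pass the test. RefSeq promoters on GRCm38.p6, from 250 bases before to 50 after a gene start, were matched by symbol for 6 of the 10 genes (Plin2, Plin3, Plin4, Cidec, Pnpla2 and Lipe), with 8 promoters in all. The 250 bases before the start are printed 5′ to 3′ on the gene's strand. Those of Plin2 are chr4:86670060-86670309 and those of Plin3 are chr17:56290512-56290761, both read from the minus strand. Capitals mark GCGTG, the core letters bound by the aryl hydrocarbon receptor with its partner, and AGGTCA, the core letters bound by nuclear receptors such as the PPARs, each on either strand.
Plin2: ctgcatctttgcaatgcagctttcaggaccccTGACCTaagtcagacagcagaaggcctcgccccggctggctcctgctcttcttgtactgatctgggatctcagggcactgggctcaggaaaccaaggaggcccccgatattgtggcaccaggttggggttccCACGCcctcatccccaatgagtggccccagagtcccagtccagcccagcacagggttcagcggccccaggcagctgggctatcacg
Plin3: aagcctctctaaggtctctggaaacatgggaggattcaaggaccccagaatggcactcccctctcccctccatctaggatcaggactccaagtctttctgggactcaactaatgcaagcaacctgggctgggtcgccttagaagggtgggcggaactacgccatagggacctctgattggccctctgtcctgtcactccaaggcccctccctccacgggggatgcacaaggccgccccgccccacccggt
The Plin2 stretch held 1 match of each, both on the opposite strand (CACGC and TGACCT as printed), starting 86 and 218 bases before the gene start. The 300-base window of Plin3 held no match of either. GCGTG was present in 32.4% and AGGTCA in 16.3% of 32817 promoters of this length. Among the other matched genes, GCGTG was found in both Cidec promoters and in 1 of 2 Lipe promoters, and neither motif in those of Pnpla2 and Plin4. CACGTG, an E-box found in 7.15% of promoters, occurred once in Plin2 and once in a Lipe promoter. TATAAA (13.6% of promoters) and a pair of AGGTCA letters in the same direction 1 base apart (0.0396%) occurred in no member's window. No 2 matches overlapped in a window, and a match describes letters only. The RefSeq start of Plin3 lies 2362 bases inside the gene as GENCODE M21 gives it.

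Measured per kilobase of exon, the 9 genes spanned more than 3 orders of magnitude. In wild-type cells the order was Plin2, Lpl, Pnpla2, Dgat1, Plin3, Angptl4, Lipe, Cidec and Dgat2. The ranges of the 3 libraries overlapped for Plin2 and Lpl, and for Pnpla2 and Dgat1, and for no other neighbours. Plin2 stood at 555 CPM per kilobase and Lpl at 531, which placed them at ranks 53 and 57 among 11399 tested genes with a known exon length. Cidec, at 1.28 CPM per kilobase, lay above 15.4% of tested genes, and Dgat2 stood at 0.187. In Ahrr-deficient cells Lpl came first, with 802 CPM per kilobase (rank 29), and Plin2 followed with 236 (rank 123). The library ranges of those 2 genes no longer overlapped, while the rest of the order was the same as in wild-type cells.

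**Figure D1:**
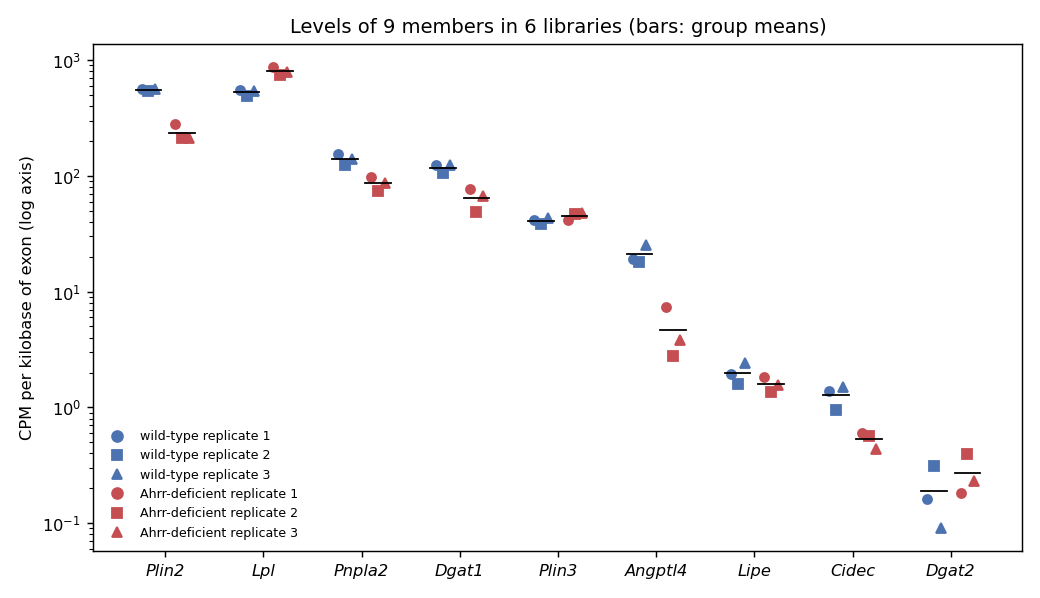
Level of each of the 9 genes, in CPM per kilobase of exon on a log axis, in the 3 wild-type (blue) and 3 Ahrr-deficient (red) libraries, with symbols for replicates 1 to 3 and bars for group means. Plin2 falls from 555 to 236 and Angptl4 from 20.9 to 4.65, Lpl rises from 531 to 802, and Plin3 stays between 38.7 and 47.3 in all 6 libraries.

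Of the 10 genes 8 had enough counts to be tested, and 6 of those were past the threshold in edgeR, 5 lower and 1 higher in Ahrr-deficient cells. Over all 11408 tested genes 19.6% were past it, 9.95% lower and 9.62% higher. Angptl4, Cidec and Plin2 (3 of the 8) passed it with a change of 2-fold or more, as did 4.51% of all tested genes. The 2 genotypes did not overlap in CPM for 6 of the 8, against 36.6% of all tested genes. The median log2 fold change was -0.85 over the 8 genes and 0.01 over all tested genes, whose 10th and 90th percentiles were -0.52 and 0.45. The 8 genes were chosen with earlier results of these data known, so these comparisons with all tested genes are descriptive only. Cidec passed the filter on low counts through the wild-type libraries alone, so it could only be tested because it was higher there. The genes that fell include coat, synthesis, lipase and inhibitor genes, and the single rise was in the gene of the secreted lipase.

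**Figure D2:**
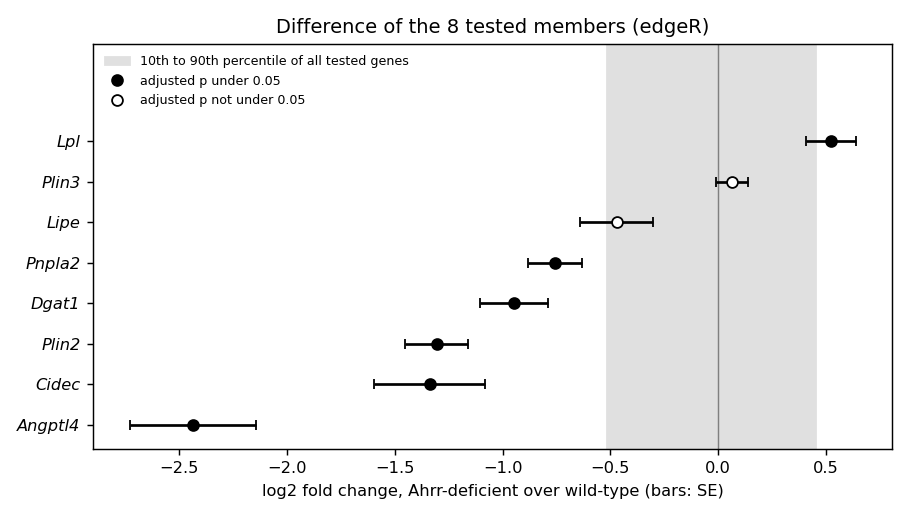
Log2 fold change (Ahrr-deficient over wild-type, x axis) of the 8 tested genes, with bars for 1 SE and filled symbols for an adjusted p under 0.05. The grey band marks the 10th to 90th percentile of all tested genes (-0.52 to 0.45), and Angptl4, Cidec, Plin2, Dgat1 and Pnpla2 lie to the left of it.

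The main perilipin of these cells fell while its paralogue did not pass the test. Plin2 (ENSMUSG00000028494.12, chromosome 4, 86648386 to 86670060, minus strand), which encodes the perilipin that covers droplets in most cell types outside fat, had 1969, 1914 and 1969 CPM in wild-type replicates 1 to 3. In Ahrr-deficient replicates 1 to 3 it had 989, 753 and 749 CPM. The wild-type values lay close together and every one of them was far above every Ahrr-deficient value. The mean was 1951 ± 32 CPM (SD, n = 3) against 830 ± 137 CPM (SD, n = 3). The fall in the fit, whose TMM factors rescale the libraries so that it differs from the ratio of the means, was 2.47-fold, with a log2 fold change of -1.31 (SE 0.14) at an adjusted p of 0.00158 by edgeR.

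Plin3 (ENSMUSG00000024197.9, chromosome 17, 56277476 to 56292873, minus strand) encodes a perilipin that moves between the cytosol and nascent droplets. It had 158, 146 and 163 CPM in the wild-type, against 158, 176 and 179 CPM in the Ahrr-deficient libraries, so the groups overlapped. Its log2 fold change was 0.06 (SE 0.07, adjusted p 0.579 by edgeR). Within each library, Plin2 made up 92.6%, 92.9% and 92.4% of the summed reads of Plin2 and Plin3 in wild-type and 86.2%, 81.1% and 80.7% in Ahrr-deficient replicates 1 to 3. This share does not depend on how libraries are scaled. It was 92.6% ± 0.3 against 82.7% ± 3.1 (SD, n = 3), a difference of -9.94 percentage points with an exact two-sided permutation p of 0.1, the smallest that 3 against 3 libraries allow.

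Cidec (ENSMUSG00000030278.11, chromosome 6, 113424634 to 113435760, minus strand), whose protein joins small droplets into larger ones, was expressed at a low level. It had 56, 11 and 20 counts in wild-type and 4, 44 and 8 counts in Ahrr-deficient libraries. That corresponds to 2.55, 1.75 and 2.80 CPM against 1.12, 1.06 and 0.809 CPM, with every Ahrr-deficient value below every wild-type value. The log2 fold change was -1.34 (SE 0.26, adjusted p 0.00946 by edgeR). In this fit 3 wild-type and 0 Ahrr-deficient libraries reached the filter on low counts. The test of Cidec is thus not independent of its higher level in wild-type. The call was lost without wild-type replicate 1 (adjusted p 0.0770 by edgeR) and without Ahrr-deficient replicate 2 (0.0524), with log2 fold changes of -1.29 and -1.48.

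For triglyceride synthesis the cells carried almost only Dgat1, and its level fell. Dgat1 (ENSMUSG00000022555.11, chromosome 15, 76502015 to 76511953, minus strand) had 377, 321 and 382 CPM in the wild-type, against 237, 150.2 and 203 CPM in the Ahrr-deficient libraries. The lowest wild-type value was above the highest Ahrr-deficient one. The means were 360.1 ± 33.6 and 197 ± 44 CPM (SD, n = 3). The fitted fall was 1.93-fold, with a log2 fold change of -0.95 (SE 0.16) at an adjusted p of 0.00626 by edgeR.

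Dgat2 (ENSMUSG00000030747.5, chromosome 7, 99153658 to 99182719, minus strand), the second enzyme of this step, did not reach the filter on low counts and was not tested. It had 11, 6 and 2 counts in wild-type and 2, 51 and 7 counts in Ahrr-deficient libraries, or 0.501, 0.952 and 0.280 CPM against 0.562, 1.22 and 0.708 CPM. The groups overlapped, and 1 library of each lay under the floor of 3 counts. Of the summed Dgat1 and Dgat2 reads, Dgat2 held between 0.0732% (95% Wilson interval 0.0201% to 0.267%) and 0.295% (0.135% to 0.643%) in wild-type libraries. In Ahrr-deficient libraries it held between 0.237% (0.0649% to 0.859%) and 0.808% (0.615% to 1.06%). The means differed by 0.30 percentage points, with an exact two-sided permutation p of 0.2, and these intervals cover counting error only. Without Ahrr-deficient replicate 2, the library with the highest share, the difference was 0.125 percentage points.

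Of the lipases that act on the droplet, Pnpla2 fell. Pnpla2 (ENSMUSG00000025509.15, chromosome 7, 141455198 to 141460743, plus strand) encodes adipose triglyceride lipase, which removes the first fatty acid from triglyceride. It had 465, 372 and 425 CPM in the wild-type, against 296, 225 and 265 CPM in the Ahrr-deficient libraries, with no overlap. The means were 421 ± 47 and 262 ± 35 CPM (SD, n = 3). The fitted fall was 1.69-fold. The log2 fold change was -0.76 (SE 0.12), at an adjusted p of 0.00588 by edgeR.

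Lipe (ENSMUSG00000003123.15, chromosome 7, 25379527 to 25398710, minus strand), the gene of hormone-sensitive lipase, had 11.5, 9.36 and 14.3 CPM in the wild-type, against 10.7, 7.94 and 9.20 CPM in the Ahrr-deficient libraries. The groups overlapped, and the log2 fold change of -0.47 (SE 0.17) came with an adjusted p of 0.0780 by edgeR. Without Ahrr-deficient replicate 1 it was -0.56, at an adjusted p of 0.0266 by edgeR, and limma-voom gave -0.53 with 0.0333. An exon of 4732471J01Rik overlaps it on the opposite strand, and whether counting used the strand is not given in the sources used here. Lipe held 2.41%, 2.45% and 3.25% of the summed Lipe and Pnpla2 reads in wild-type and 3.49%, 3.41% and 3.36% in Ahrr-deficient replicates 1 to 3. The difference of 0.71 percentage points had an exact two-sided permutation p of 0.1, the smallest possible here, and wild-type replicate 3 lay close to the Ahrr-deficient values.

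The transcripts of the secreted lipase and of its inhibitor differed in opposite directions. Angptl4 (ENSMUSG00000002289.15, chromosome 17, 33773750 to 33781830, minus strand) had 67.8, 64.4 and 90.2 CPM in the wild-type, against 25.9, 9.86 and 13.7 CPM in the Ahrr-deficient replicates 1 to 3. Every wild-type value was more than 2 times the highest Ahrr-deficient value, which was that of replicate 1. The means were 74.1 ± 14.0 and 16.5 ± 8.4 CPM (SD, n = 3). This was a 5.42-fold fall in the fit, the largest among the 8 tested genes, with a log2 fold change of -2.44 (SE 0.29) at an adjusted p of 0.00218 by edgeR. Per kilobase of exon it went from rank 1942 to rank 6579 among tested genes.

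Lpl (ENSMUSG00000015568.16, chromosome 8, 68880491 to 68907448, plus strand), the gene of lipoprotein lipase, had 5797, 5168 and 5729 CPM in the wild-type, against 9144, 7729 and 8340 CPM in the Ahrr-deficient libraries. All 3 Ahrr-deficient values were above all wild-type values. The means were 5565 ± 346 and 8404 ± 710 CPM (SD, n = 3). The fitted rise was 1.44-fold, with a log2 fold change of 0.52 (SE 0.12) at an adjusted p of 0.0173 by edgeR. The call did not hold when wild-type replicate 1 (adjusted p 0.113 by edgeR), replicate 2 (0.0766) or replicate 3 (0.0801), or Ahrr-deficient replicate 3 (0.0838), was left out, with log2 fold changes of 0.50 to 0.53 in those fits. The log2 ratio of Lpl to Angptl4 counts within a library, with 0.5 added to each count, was 6.42, 6.32 and 5.99 in wild-type and 8.46, 9.61 and 9.25 in Ahrr-deficient replicates 1 to 3. The means were 6.24 ± 0.23 and 9.11 ± 0.59 (SD, n = 3). The difference of 2.86 had an exact two-sided permutation p of 0.1, again the smallest possible.

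**Figure D3:**
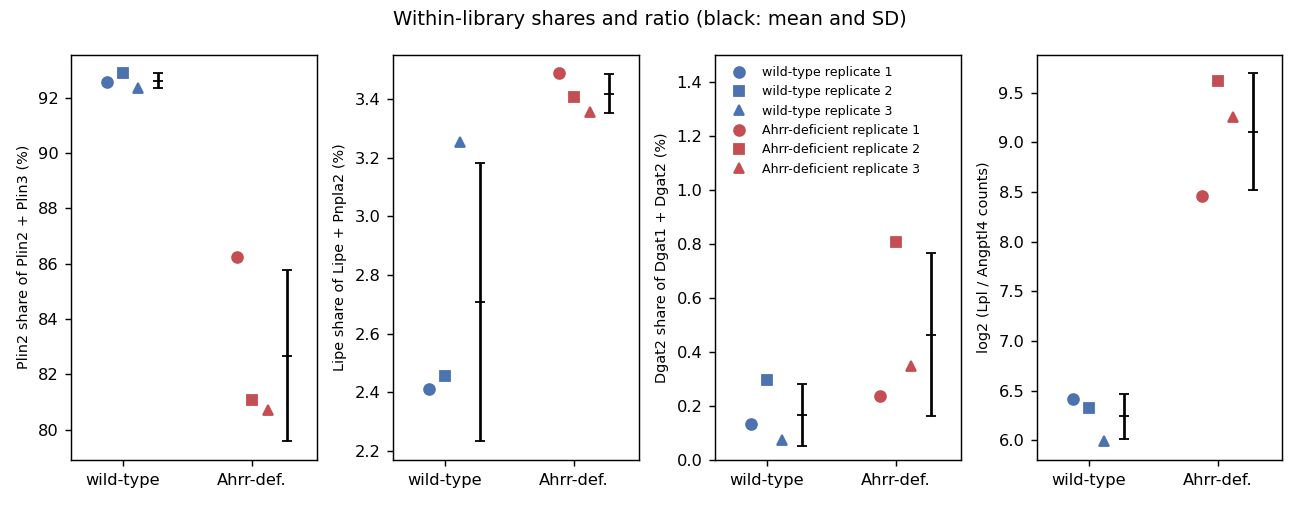
Within-library values in the wild-type (blue) and Ahrr-deficient (red) libraries: the Plin2, Lipe and Dgat2 shares of the reads of each gene pair in percent, and the log2 ratio of Lpl to Angptl4 counts, with the mean and SD in black. The groups are apart for Plin2 (92.4% to 92.9% against 80.7% to 86.2%) and the Lpl to Angptl4 ratio (5.99 to 6.42 against 8.46 to 9.61). The Lipe shares (2.41% to 3.25% against 3.36% to 3.49%) do not overlap, but the gap to wild-type replicate 3 is within counting error. The groups overlap for Dgat2, and only the axis of the Dgat2 plot starts at 0.

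In the Ahrr-deficient group, replicate 1 was the library nearest to the wild-type mean for all 5 genes that fell (Plin2, Cidec, Dgat1, Pnpla2 and Angptl4). For Lpl it was the farthest, with the highest value of all 6 libraries. Among all 1011 genes that were lower past the threshold without overlap, replicate 1 was the nearest for 54.6%, replicate 3 for 29.1% and replicate 2 for 16.3%. Replicate 1 is also the shallowest library. With every library thinned to its total, Plin2, Dgat1, Pnpla2, Angptl4 and Lpl remained past the threshold, with log2 fold changes of -1.30, -0.93, -0.83, -2.25 and 0.52. Cidec did not reach the filter on low counts after thinning, so it had no value there. Without replicate 1 the log2 fold changes of Plin2, Dgat1, Pnpla2, Angptl4 and Lpl were -1.47, -1.12, -0.87, -2.80 and 0.44, all past the threshold.

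Genes that act beside these members were taken from 5 lists with 91 different gene names. Of these, 71 had a row, 68 were tested and 26 (38.2%, against 19.6% of all tested genes) passed the threshold, 10 higher and 16 lower, with a median log2 fold change of -0.05. The lists too were chosen with earlier results known, so this share is descriptive only. Among 17 droplet proteins and formation factors, 14 were tested, 4 fell, 2 rose and 8 did not pass, and the median log2 fold change was 0.10. Plin1, the perilipin of fat cells, had 8.71, 7.30 and 12.05 CPM in the wild-type, against 5.34, 0.888 and 3.13 CPM in the Ahrr-deficient libraries, without overlap. Its log2 fold change was -2.23 (SE 0.52, adjusted p 0.0193 by edgeR). It was -1.33 without Ahrr-deficient replicate 2, the library with the lowest value, and -1.47 with all libraries thinned to the smallest total, both past the threshold. All 3 wild-type and 2 of 3 Ahrr-deficient libraries reached the filter on low counts. That call was lost without wild-type replicate 1 (adjusted p 0.0710 by edgeR), without wild-type replicate 3 (0.0623) and in DESeq2, whose log2 fold change was -1.72 with an adjusted p of 0.0762. Of the other 6 adipocyte markers, 5 had no row, as given above. Hilpda, whose product sits on droplets and inhibits the lipase encoded by Pnpla2, fell from 458 ± 68 to 109 ± 23 CPM (SD, n = 3). All 3 of its Ahrr-deficient values, 133, 109 and 86.3 CPM, lay below the lowest wild-type value of 382 CPM. The log2 fold change was -2.16 (SE 0.19) at an adjusted p of 7.06e-04 by edgeR. The seipin gene Bscl2, needed for droplet assembly, fell by 0.35 on the log2 scale and Aup1 by 0.27, while Ldah rose by 0.36 and Vps13c by 0.47. For Aup1 (adjusted p 0.0442 by edgeR) the groups overlapped in CPM only through wild-type replicate 2, at 122 CPM, before the TMM rescaling. Its call was not followed through the alternative fits. Exons of other genes overlap Bscl2 and Aup1 on the opposite strand, and an exon of AC129217.1 overlaps Bscl2 on its own strand. The call was lost for Bscl2 without wild-type replicate 1 (adjusted p 0.0830 by edgeR) or replicate 2 (0.0687), for Vps13c without wild-type replicate 1 (0.0511), and for Ldah in 5 of the 6 fits with a library removed. With thinned libraries Ldah was at 0.13 (adjusted p 0.603 by edgeR).

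The list for fatty acid activation and glycerolipid synthesis held 22 names, of which Agpat9 and Agpat6 are older symbols of Gpat3 and Gpat4. Of 16 tested genes 3 rose, 3 fell and 10 did not pass, with a median log2 fold change of 0.02. Gk, which encodes the kinase that turns glycerol into glycerol phosphate, had 9.34, 11.9 and 10.8 CPM in the wild-type, against 32.1, 27.98 and 25.8 CPM in the Ahrr-deficient libraries. Its log2 fold change was 1.36 (SE 0.15, adjusted p 0.00158 by edgeR), and an exon of Gm14764 overlaps it on the opposite strand. Acsl4, an acyl-CoA synthetase with a preference for arachidonic acid, rose from 114 ± 14 to 211 ± 37 CPM (SD, n = 3; log2 fold change 0.81, adjusted p 0.00917 by edgeR). Acsl5 rose by 0.30 on the log2 scale, and Lpin2, a phosphatidate phosphatase gene, fell by 0.59, Agpat3 by 0.44 and Acsl1 by 0.26. For Acsl1 (adjusted p 0.0396 by edgeR) the groups overlapped in CPM only through wild-type replicate 2, at 74.9 CPM, before the TMM rescaling. Its call was not followed through the alternative fits. With 1 library left out at a time, Acsl5 kept the call in 1, Lpin2 in 2 and Agpat3 in 4 of 6 fits. Thinning to the smallest total also ended the calls of Acsl5 (adjusted p 0.102 by edgeR) and Lpin2 (0.0570). Exons of other genes overlap Acsl5, Acsl1 and Agpat3 on the opposite strand. Gpam, Gpat4, Lpin1 and Agpat2 had log2 fold changes between -0.10 and 0.10 and did not pass the test.

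Of 13 intracellular lipases and cofactors 11 were tested, of which 1 rose, 1 fell and 9 did not pass, with a median log2 fold change of -0.10. Abhd5, whose product activates the lipase encoded by Pnpla2, had 45.8, 38.4 and 38.5 CPM in the wild-type, against 51.7, 83.5 and 73.6 CPM in the Ahrr-deficient libraries. Its log2 fold change was 0.71 (SE 0.15, adjusted p 0.0154 by edgeR), but it was called in 1 of 6 fits when a library was removed. An exon of A730085K08Rik overlaps it on the opposite strand. Pnpla3, a relative of Pnpla2, was at 3.54 CPM in wild-type and fell by 1.60 on the log2 scale (adjusted p 0.0129 by edgeR); an exon of Gm49513 overlaps it on the same strand. All 3 wild-type and 2 of 3 Ahrr-deficient libraries reached the filter for Pnpla3. G0s2, which encodes another inhibitor of the Pnpla2 product, had a log2 fold change of -0.21 (SE 0.27). For Mgll, which completes triglyceride breakdown, it was 0.31 (SE 0.11, adjusted p 0.0839 by edgeR), and for the lysosomal lipase gene Lipa 0.03 (SE 0.12).

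Among 23 genes for the handling of lipoprotein lipase and for fatty acid uptake, 13 were tested, 5 fell, 1 rose and 7 did not pass, with a median log2 fold change of -0.13. Apoc1, an apolipoprotein gene, had 14.1, 16.2 and 12.9 CPM in wild-type and at most 0.844 CPM in Ahrr-deficient libraries. Its log2 fold change was -4.62 (SE 0.24, adjusted p 1.44e-04 by edgeR). Like Cidec it passed the filter on low counts through the wild-type libraries alone, with 3, 23 and 7 counts in Ahrr-deficient replicates 1 to 3. The syndecan genes Sdc1 and Sdc4 encode heparan sulfate proteoglycans, the class of surface molecule to which lipoprotein lipase binds. Sdc1 fell from 193 ± 28 to 89.4 ± 33.0 CPM and Sdc4 from 17.1 ± 3.0 to 8.04 ± 1.84 CPM (SD, n = 3), by 1.22 and 1.20 on the log2 scale. The fatty acid transporter Slc27a1 fell by 0.92 and the fatty acid binding protein Fabp5 by 0.67 on the log2 scale, and Cd36 did not pass the test (log2 fold change -0.12, SE 0.15). Furin, a convertase that can cleave lipoprotein lipase and its angiopoietin-like inhibitors, rose from 362 ± 47 to 691 ± 180 CPM (SD, n = 3; log2 fold change 0.86, adjusted p 0.0141 by edgeR). An exon of Gm44851 overlaps it on the opposite strand. Its lowest Ahrr-deficient value, 484 CPM in replicate 1, was above the highest wild-type value of 413 CPM, and the call was lost without wild-type replicate 2 (adjusted p 0.0561 by edgeR), wild-type replicate 3 (0.0548) or Ahrr-deficient replicate 3 (0.0567). Lmf1 and Sel1l, which help lipoprotein lipase to fold and leave the endoplasmic reticulum, had log2 fold changes of 0.09 (SE 0.11) and 0.28 (SE 0.11) and did not pass the test.

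**Figure D4:**
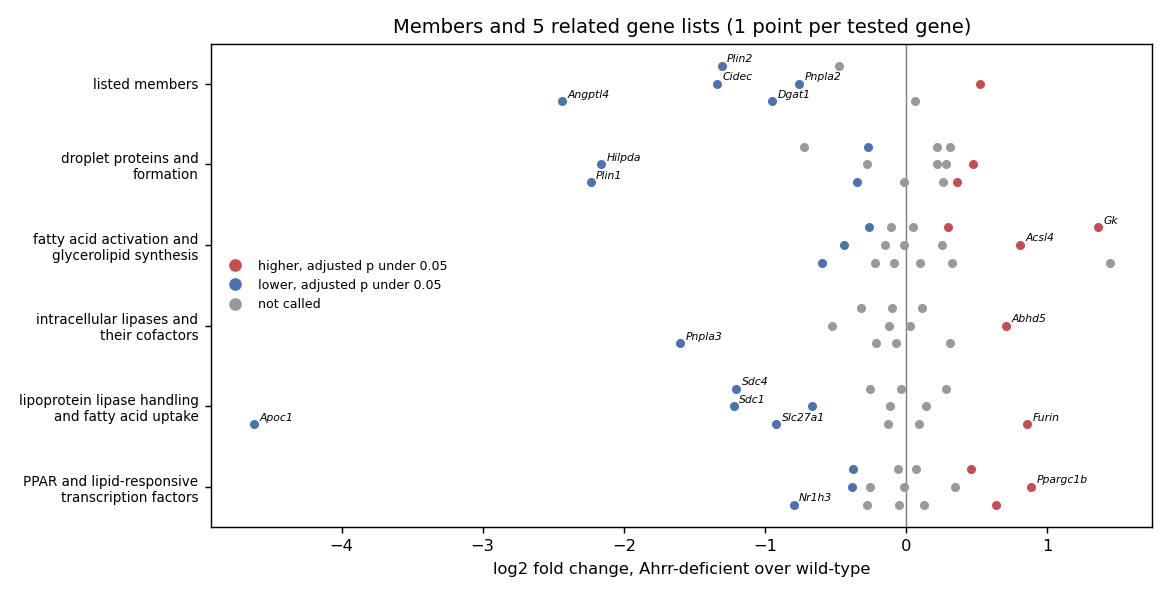
Log2 fold change (Ahrr-deficient over wild-type, x axis) of each tested gene among the members and in 5 related gene lists, with 1 point per gene, red for higher and blue for lower at an adjusted p under 0.05, and grey for genes that did not pass. Points past the threshold with large changes carry their name; Angptl4, Plin1, Hilpda and Apoc1 lie below -2, and Gk lies at 1.36.

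Of 16 listed transcription factors that respond to lipids, 14 were tested, 3 rose, 3 fell and 8 did not pass, with a median log2 fold change of -0.03. Pparg, the receptor gene that drives fat cell and alveolar macrophage differentiation, had 82.5, 79.7 and 77.8 CPM in the wild-type, against 107, 148 and 136 CPM in the Ahrr-deficient libraries. Its rise had a log2 fold change of 0.64 (SE 0.11, adjusted p 0.00736 by edgeR), and a link between Pparg and the members was not tested. Ppargc1b, a coactivator gene, rose by 0.88 and Hif1a by 0.46 on the log2 scale. The liver X receptor genes Nr1h3 and Nr1h2 fell by 0.80 and 0.38, and Rxrb, a partner of these receptors, by 0.38 on the log2 scale. Ppard had a log2 fold change of -0.05 (SE 0.11) and did not pass, and Ppara had no row. When each library was left out in turn, Rxrb and Nr1h2 kept the call in 2 of 6 fits each and Hif1a in 4. Rxrb lost it with thinned libraries as well (adjusted p 0.0503 by edgeR). Exons of other genes overlap Hif1a on both strands and Nr1h3 on its own strand.

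Over the 6 libraries, the genes outside the members whose log2 CPM ran most like that of Angptl4 were Neurl3, Zfp36 and Ptk2b, with Pearson r of 0.9996, 0.9987 and 0.9983. Hspa4l and Prr5l were among those most like Lpl, with r of 0.998 each. These values describe 6 libraries, 3 of each genotype and of unequal depth, and a value over 0.95 was reached by 313 genes for Angptl4 and 280 for Lpl. Zfp36, which encodes a protein that speeds the decay of messenger RNAs, was at 456 CPM in wild-type and 152 CPM in Ahrr-deficient cells.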

How the data were processed

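PolyA RNA from 3 wild-type and 3 Ahrr-deficient mice was sequenced (TruSeq, 100 ng, single 75 bp reads), per the labels' protocols. The submitters' processing notes name CASAVA 1.8.2, fastp 0.20.0, STAR 2.7.10b, SAMtools 1.16.1, R 4.3.1, DESeq2 1.40.2 and mm10. The counting program, annotation and strand setting are not given in the sources used here. The authors deposited raw read counts for 53465 features without identifiers, and a normalized signal with identifiers for 16111 genes. Multiplied by recomputed median-of-ratios factors, 100% of the deposited signal values were whole reads (within 0.001). They were identical to the raw counts of features with at least 10 counts and were used as counts per gene; the other features entered the library totals.

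The main test was edgeR 4.0.16 (quasi-likelihood, two-sided; R 4.3.3) with TMM, filterByExpr (1.17 CPM in 3 libraries) and genotype alone, adjusted by Benjamini-Hochberg over 11408 genes, at 0.05. It was tested on simulated data. Standard errors came from the fold change and its F statistic. CPM used library totals without the TMM factors (0.904 to 1.04), so overlap of groups in CPM was judged before that rescaling. Wild-type replicate 2 had the lowest median-of-ratios factor for its total, so its CPM values ran low. The factor was 0.539 for 6300421 counts, against 0.689 for 7137414 in wild-type replicate 3. Exon lengths are unions of exons in GENCODE M21 (GRCm38, the same build as mm10; 16094 of 16111 identifiers found), which lowers the level of genes with rarely used exons. Alternatives were RLE and upper-quartile factors, no filter, a mean of at least 50 counts, limma-voom 3.58.1, DESeq2 1.42.0, the replicate block, thinning to the smallest total, and each library left out. No 2 replicates were duplicates (chi-square per degree of freedom 5.79 to 175).

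The members and lists were chosen with earlier results of these data known. From each list, the 3 largest rises and 3 largest falls were named if called, without overlap and averaging 50 counts or more, as were the 3 genes most like Lpl and Angptl4, of which 1 is not reported here. Aup1, Acsl1, Pnpla3, Slc27a1, Fabp5, Csf1r, Car4, Itgax and genes that did not pass were named after their values were seen.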

Additional observations from a re-analysis of the deposited data

How the results depend on the processing

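Plin2, Dgat1, Pnpla2 and Angptl4 kept their direction and their call in all 14 alternatives, with log2 fold changes of -1.47 to -1.24, -1.12 to -0.78, -0.87 to -0.66 and -2.80 to -2.08. Plin3 passed the threshold in 0 of 14 and Lipe in 2 of 14. Lpl passed in 10 of 14 (log2 fold change 0.44 to 0.58) and Cidec in 9 of the 12 that gave it a value. The number of members called was 4 to 7 when a library was left out. Of 404 recomputed values of members and of genes named from the lists by size of change, 348 kept direction and side, 54 lost and 2 gained the call, and 0 reversed. Genes named after their values were seen are not among these. Over all genes, the number called was 694 without wild-type replicate 1 and 3857 without Ahrr-deficient replicate 1, and 1228 after thinning to the smallest total. The number called at least 2-fold, 515 in the reported test, was 827 without a filter, 341 with a mean of at least 50 counts, 321 after thinning and 277 to 754 when a library was left out. Replicate numbers recur in both groups but mark different mice, and the deviations of same-numbered libraries correlated at -0.17, 0.07 and 0.13. With the replicate block 1390 genes and 5 members were called, without Cidec (log2 fold change -1.27, edgeR adjusted p 0.0525). Ldah, Acsl5 and Rxrb also lost their call with it (0.0680, 0.0779 and 0.0550). Causes were not tested. Dgat2 and Cidec had 2 to 56 counts per library, which limits their precision.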
